A study of Homo sapiens with 16 samples.

Results

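The comparison set untreated HepG2 lines carrying 1 copy of each PNPLA3 allele (genotype GC) against untreated HepG2 lines with 2 copies of the C allele (genotype CC). HepG2 is an established human liver cancer line, and the lines were made by prime editing at the PNPLA3 I148M site, where the G allele encodes methionine. The members are 5 of the 16 RNA sequencing libraries in the series. They are GC clones 2, 3 and 4 and CC clones 1 and 3, each grown without palmitic acid and sequenced once. The series also holds untreated GG clones 1, 2 and 6, which entered the fit as a group of their own, and a palmitic acid library of all 8 clones (250 µM for 48 h). Each numbered line is called a clone here and counted as 1 replicate. The labels do not say how a line was isolated or which vehicle the untreated cells received, and the series has only 2 CC clones. The question, as far as the series' description gives it, is how the transcriptome differs by PNPLA3 genotype.

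PNPLA3 is a lipase of the lipid droplet surface in hepatocytes, and its transcription is raised by insulin and by the lipogenic factors SREBP-1c and ChREBP. The methionine form stays on the droplet, where it is associated with retained triglyceride and, in carriers, with fatty liver disease. A clone grown from an edited cell also carries whatever expression state and karyotype its founder had, and HepG2 is an aneuploid line.

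No gene was called different between GC and CC clones. Of 13164 genes tested with limma, 0 passed a Benjamini-Hochberg adjusted p of 0.05 (0.0% called), and the lowest adjusted p was 0.996, so that of every gene named here was as high or higher. Differences are therefore given with a standard error (SE) and no p of their own. At an unadjusted p under 0.05 there were 168 genes higher in GC (1.28%) and 155 lower in GC (1.18%), together 323 (2.45%). edgeR's quasi-likelihood test on the read counts recovered from the table also called 0 genes, with 336 at an unadjusted p under 0.05. DESeq2 on the same reads called 4 genes, described below. A gene's median absolute difference was 0.183 on the log2 scale, against a median standard error of 0.261. The exact permutation test used here was two-sided, with p taken as 2 times the smaller tail. With 3 libraries against 2 it has 10 arrangements, so this p cannot go below 0.2 for any single gene.

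The libraries held 11544761 reads (GC clone 2), 15034699 (GC clone 3), 12633316 (GC clone 4), 15777669 (CC clone 1) and 12051029 (CC clone 3) in the tabulated genes. Genotype accounted for 25.2% of the sum of squares over genes in these 5 libraries, and differences between clones of 1 genotype accounted for 74.8%. Genotype takes 1 of the 4 degrees of freedom, so 25% would fall to it with no genotype effect. The Pearson correlation across genes was 0.957 between the CC clones, lower than the 0.975 between GC clone 3 and CC clone 1. Between GC clones 2 and 4 it was 0.953, so clones of either genotype could be this unlike. Counted as chi-square per degree of freedom on the reads, the CC clones stood 62.6 apart and GC clone 3 and CC clone 1 stood 28.7 apart. GC clones 2 and 3 stood 25.3 apart, and GC clones 2 and 4 stood 53.7 apart. No library is a copy of another. AFP, the oncofetal albumin relative, had 6322, 14674 and 18692 units in GC clones 2, 3 and 4, against 16798 and 6843 units in CC clones 1 and 3. A unit is 1 CPM after the authors' scaling between libraries, and values are given in this order of clones throughout. HNF4A, the master hepatocyte factor, had 401, 484 and 460 units in GC clones and 508 and 412 units in CC clones. These hepatocyte genes were present in all 5 libraries. ALB, the albumin gene, had 17.7, 221 and 328 units in GC clones and 151 and 179 units in CC clones, so that GC clone 2 stood apart. TTR, the gene of the plasma carrier transthyretin, had only 7.35 to 9.98 units in GC clones and 5.35 to 16.7 units in CC clones.

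PNPLA3 itself had 9.88, 11.2 and 6.52 units in GC clones, against 13.3 and 1.99 units in CC clones. The highest and the lowest value both belonged to a CC clone, and the groups overlapped. The difference was 0.69 ± 0.63 (SE) on the log2 scale of level plus 0.5, with an exact permutation p of 0.8. It was -0.54 without CC clone 3, so its direction rested on that library. RNA levels do not report the edited base, so PNPLA3 reads per gene give no check of the genotype labels. GG clones had 6.64, 4.67 and 3.47 PNPLA3 units.

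Among the 7 tested patatin-like lipases, PNPLA7, a lysophospholipase, was the 1 member whose groups did not overlap (14.3%, where all 3 GC libraries lay above both CC libraries at 10.9% of all genes tested), a share near that of all genes. It had 3.54, 2.76 and 2.66 units in GC clones and 2.15 and 1.91 units in CC clones, a difference of 0.45 ± 0.38. PNPLA2, the main triglyceride lipase of the droplet, had 69.8, 67.8 and 86.9 units in GC clones and 51.1 and 80.3 units in CC clones. The CC clones enclosed 2 of the 3 GC values. PNPLA1, a skin acylceramide enzyme, had 1.25 to 2.53 units in GC clones and 1.36 to 1.45 units in CC clones. PNPLA4, a retinyl ester hydrolase, had 12.2 to 13.9 units in GC clones and 11.0 to 12.4 units in CC clones. PNPLA6, a lysophospholipase of nerve and other cells, had 34.5 to 44.5 units in GC clones and 29 to 43.1 units in CC clones, and PNPLA8, a calcium-independent phospholipase, had 22.4 to 24.5 and 21.8 to 29.5 units. All of these but PNPLA7 overlapped.

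The genes next to PNPLA3 on chromosome 22 showed no common shift. Of 9 tested neighbours, 0 lay higher in all GC libraries and 1 lay lower (11.1%, against 12.4% of all genes tested), and the median difference was 0.15 on the log2 scale. The 1 was NUP50, a nuclear pore protein, with 115, 121 and 126 units in GC clones and 152 and 170 units in CC clones (-0.41 ± 0.18). SAMM50, which sorts proteins into the outer mitochondrial membrane and lies beside PNPLA3, had 46.6, 51.7 and 43.9 units in GC clones and 62.0 and 36.4 units in CC clones. TSPO, a cholesterol-binding mitochondrial protein, had 28.6, 12.3 and 6.92 units in GC clones and 0.569 and 16.2 units in CC clones, the widest spread of the set.

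With no gene past the threshold, the description rests on genes whose GC and CC libraries did not overlap. All 3 GC libraries lay above both CC libraries at 1433 genes (10.9%) and below both at 1629 genes (12.4%), together 23.3% of those tested. Each of these patterns is 1 of the 10 arrangements of the 5 libraries. With no genotype effect, about 1 gene in 10 would therefore fall on each side. Few of these gaps were wide. A gap of at least 1 on the log2 scale between the nearest GC and CC libraries was found at 15 genes with GC higher (0.114%) and at 6 genes with GC lower (0.0456%). Of the 1433 genes, 1284 (89.6%) also had a higher mean in GC clones under palmitic acid, and of the 1629 genes, 1498 (92%) had a lower one. Over all genes tested the sign was shared at 78.1%. The palmitic acid libraries come from the same 8 clones, so they repeat the clones and not the genotype.

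**Figure D1:**
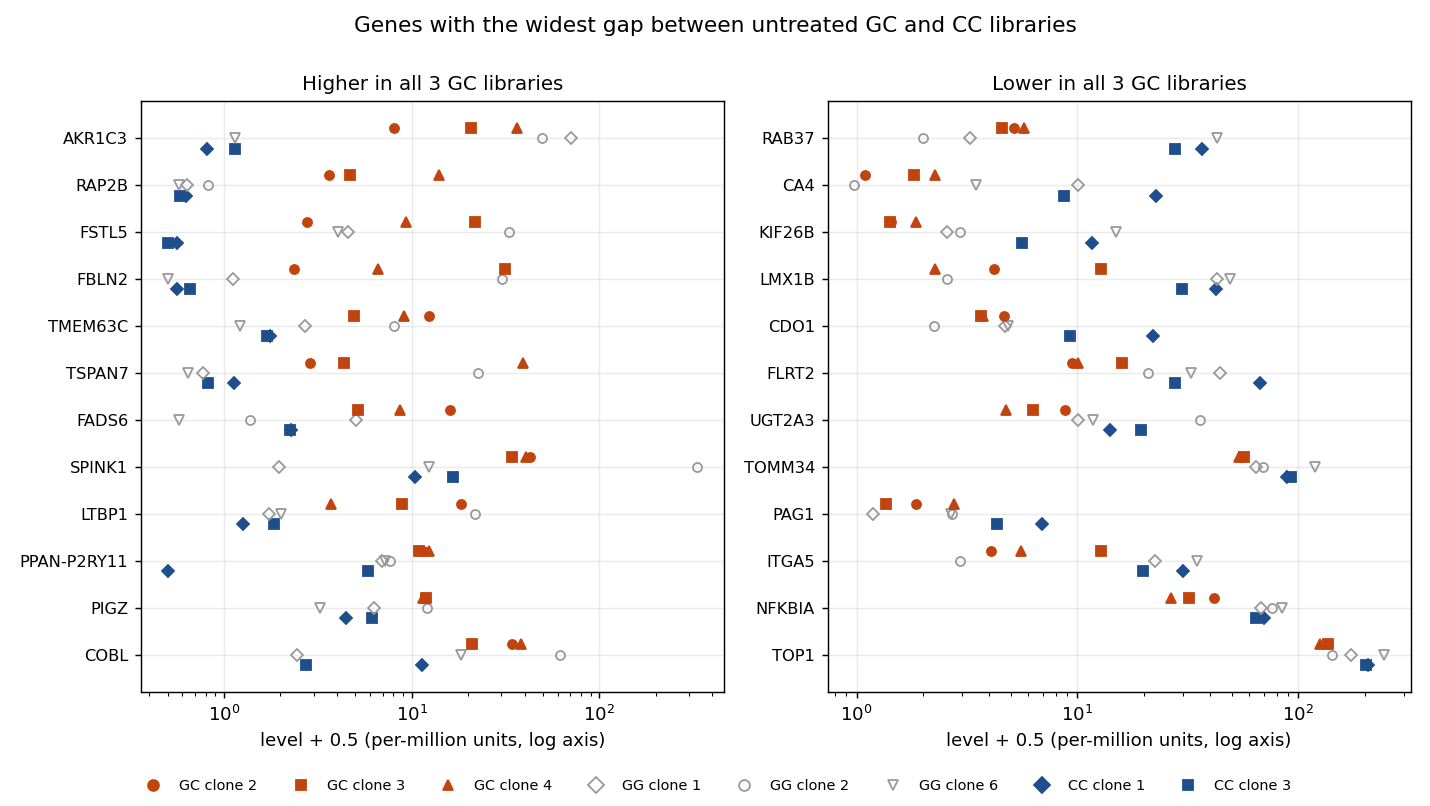
Level plus 0.5 in per-million units (log axis) in each untreated library for the 12 genes with the widest gap in each direction; orange symbols are GC clones, open grey symbols GG clones and blue symbols CC clones, with 1 symbol per clone. GG clones took no part in the choice, and their place varied by gene. For AKR1C3 they lay on either side of the gap (70.2, 48.8 and 0.651 units). All 3 lay with the CC clones for RAP2B (0.138, 0.317 and 0.0724 units) and with the GC clones for CDO1 (4.22, 1.74 and 4.34 units).

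Several of the genes with the widest gap and GC higher were near the detection floor in CC clones, while others, such as SPINK1 and PIGZ, were well above it. AKR1C3, an aldo-keto reductase that reduces steroids and prostaglandins, had 7.6, 20.2 and 35.7 units in GC clones and 0.316 and 0.638 units in CC clones. The difference was 4.24 ± 1.54, and GG clones had 70.2, 48.8 and 0.651 units, so the gene was low in 1 GG clone as well. Its related neighbours did not share the pattern. AKR1C1 had 53.3, 34.7 and 12.5 units in GC clones and 140 and 1.91 units in CC clones, and AKR1C2 had 2.19 to 5.39 units in GC clones and 0.718 to 5.95 units in CC clones. Reads of these paralogs can be split between them by the counting, so each level is uncertain.

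RAP2B, a small GTPase of the Ras family, had 3.12, 4.2 and 13.4 units in GC clones and 0.127 and 0.0798 units in CC clones. Its difference was 3.36 ± 0.55. GG clones had 0.138, 0.317 and 0.0724 units, so only GC clones among these 8 libraries had more than 1 unit. With palmitic acid the same clones had 2.93, 3.93 and 16.0 units (GC) and 0.0704 and 0.108 units (CC). The CC level is 1 or 2 reads per library, so the size of the difference depends on the added 0.5. PER3, a component of the circadian clock, had 5.23, 2.69 and 4.99 units in GC clones and 0.253 and 0.399 units in CC clones (2.50 ± 0.37). GG clones had 0.415, 0.475 and 0.724 PER3 units. RAP2B and PER3 were 2 of the 4 genes called by DESeq2 (adjusted p = 0.00125 and 0.0023).

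FSTL5, a secreted follistatin-like protein, had 2.28, 21.3 and 8.77 units in GC clones and 0.0633 and 0 units in CC clones. FBLN2, an elastic-fibre matrix protein, had 1.86, 31.0 and 6.12 units in GC clones and 0.0633 and 0.16 units in CC clones. For both genes GC clone 3 was the highest of the GC clones and GC clone 2 the lowest. TSPAN7, a tetraspanin, had 2.36, 3.87 and 38.6 units in GC clones and 0.633 and 0.319 units in CC clones, with GC clone 4 far above the others. TMEM63C, a membrane channel protein, had 11.8, 4.4 and 8.61 units in GC clones and 1.27 and 1.2 units in CC clones (2.24 ± 0.71). LTBP1, which holds latent TGF-beta in the matrix, had 17.9, 8.34 and 3.22 units in GC clones and 0.759 and 1.36 units in CC clones (2.47 ± 1.06). In these 2 genes GC clone 2 was the highest. COBL, an actin nucleator, had 33.7, 20.4 and 37.8 units in GC clones and 10.8 and 2.23 units in CC clones. Among the 13164 genes tested, 4 were at 2 units or more in every GC library and at most 0.5 units in both CC libraries. They were CCDC180, FSTL5, PER3 and RAP2B. The same count in the opposite direction gave 0. The filter on the mean over 3 GC and 2 CC libraries more readily keeps genes high only in GC clones. The counts in the 2 directions therefore cannot be compared.

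SPINK1, a secreted trypsin inhibitor made in liver tumours, had 42.4, 33.7 and 40.3 units in GC clones and 9.87 and 16.0 units in CC clones. The GC clones were close to each other here, but GG clones ran from 1.45 to 332 units, and the standard error of the difference (1.58 ± 1.66) exceeded the difference. PIGZ, a mannosyltransferase of the glycolipid anchor pathway, had 11.3, 11.4 and 11.0 units in GC clones and 3.99 and 5.66 units in CC clones (1.16 ± 0.47). FADS6, named for a fatty acid desaturase domain, had 15.4, 4.66 and 8.13 units in GC clones and 1.77 and 1.76 units in CC clones (1.98 ± 0.82). PPAN-P2RY11, a read-through of adjacent genes that shares their exons, had 11.1, 10.5 and 11.8 units in GC clones and 0 and 5.35 units in CC clones. The level of such a read-through depends on how reads were divided among the overlapping genes. With palmitic acid its groups overlapped, at 3.74, 4.17 and 11.4 units in GC clones and 3.17 and 11.0 units in CC clones.

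Among genes lower in all GC libraries, RAB37, a GTPase of secretory vesicles, had 4.64, 4.07 and 5.23 units in GC clones and 36.1 and 27.0 units in CC clones. Its GC clones were tightly grouped, and the difference was -2.63 ± 1.06. GG clones had 2.77, 1.5 and 42.3 units, so they lay at both levels, and their spread enters this standard error. CA4, a membrane-anchored carbonic anhydrase, had 0.591, 1.31 and 1.77 units in GC clones and 22.3 and 8.22 units in CC clones (-3.09 ± 0.87). LMX1B, a LIM-homeodomain factor, had 3.71, 12.3 and 1.77 units in GC clones and 41.9 and 29.4 units in CC clones (-2.84 ± 1.21). KIF26B, of the kinesin family, had 0.928, 0.919 and 1.37 units in GC clones and 11.2 and 5.11 units in CC clones (-2.38 ± 0.71). All 4 genes were expressed in both CC clones and low in the 3 GC clones. For RAB37, CA4 and LMX1B at least 1 GG clone was as low as the GC clones. GG clones had 2.08, 2.46 and 14.5 KIF26B units, so the lower values lay between the GC and CC clones.

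FLRT2, a cell adhesion protein and the third gene called by DESeq2 (adjusted p = 0.0304), had 8.95, 15.4 and 9.58 units in GC clones and 66.9 and 27.1 units in CC clones (-1.91 ± 0.44 in limma). ITGA5, the alpha chain of the fibronectin receptor, had 3.54, 12.3 and 5.07 units in GC clones and 29.5 and 19.4 units in CC clones (-1.89 ± 0.94). CDO1, which oxidises cysteine towards taurine, had 4.14, 3.15 and 3.22 units in GC clones and 21.5 and 8.78 units in CC clones (-1.84 ± 0.45). In all 3 genes CC clone 1 was higher than CC clone 3. UGT2A3, a glucuronosyltransferase, had 8.27, 5.78 and 4.27 units in GC clones and 13.5 and 18.9 units in CC clones (-1.37 ± 0.52), and its family members share sequence. PAG1, an adaptor of membrane rafts, had 0.854 to 2.25 units in GC clones and 3.83 to 6.39 units in CC clones (-1.52 ± 0.48). The fourth gene called by DESeq2, higher in GC clones, was the zinc finger gene ZNF711 (adjusted p = 0.00542), with 0.506, 0.394 and 5.23 units in GC clones and 0 in both CC clones. Most of its GC reads came from GC clone 4, and no fold is given because both CC clones were at 0. GG clones had 0, 8.24 and 0 units.

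NFKBIA encodes the inhibitor that holds NF-kB in the cytoplasm and is itself switched on by NF-kB. It had 41.3, 31.6 and 26.2 units in GC clones and 69.8 and 64.2 units in CC clones, with all GC libraries below both CC libraries. The difference was -1.03 ± 0.21. GG clones had 67.7, 75.6 and 83.9 units, and the palmitic acid libraries of the same clones had 58.1, 35.2 and 25.3 units (GC) and 75.6 and 61.4 units (CC). NFKBIA lies in a stretch of chromosome 14, from 30 to 40 Mb, where the 41 tested genes had a median deviation of -0.56 in GC clone 4. The same stretch stood at 0.18 in GC clone 2 and 0.01 in GC clone 3, and at 0.28 and 0.23 in CC clones. Its median difference was -0.34. Of its 41 genes, 10 lay lower in all GC libraries and 0 higher, against 12.4% and 10.9% of all genes. The part of this stretch in the NFKBIA difference was not tested. Of 10 tested genes of the NF-kB and inflammation list, 3 lay lower in all GC libraries and 0 higher (against 12.4% and 10.9% of all genes). The list's median difference was -0.09, against -0.01 over all genes, and it was -0.46 against CC clone 3 alone and 0.18 against CC clone 1 alone, so the direction turned. The other 2 were NFKBIE, another inhibitor, and NFKB1, which encodes a subunit of NF-kB, with 44.0, 39.7 and 30.3 units in GC clones and 50.7 and 49.5 units in CC clones (-0.41 ± 0.21). The NFKBIA promoter is shown because this gene had the widest gap on the list. The stretch is the 250 bases before the annotated start in RefSeq (GRCh38.p14, chr14:35404750-35404999, minus strand), printed 5′ to 3′ along the gene, with the match to the NF-kB consensus in capitals.
NFKBIA: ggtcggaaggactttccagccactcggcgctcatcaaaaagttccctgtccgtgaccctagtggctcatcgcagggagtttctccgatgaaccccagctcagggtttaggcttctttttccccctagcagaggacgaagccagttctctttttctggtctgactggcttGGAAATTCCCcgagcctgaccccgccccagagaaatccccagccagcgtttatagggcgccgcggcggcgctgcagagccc
The consensus, searched on both strands, was found in 4 of the 8 list members that have a promoter entry (50%) and in 5.05% of 27305 promoters. A match is a run of letters and not a measured binding site. The list was drawn up by pathway, so this share describes its make-up and not the GC and CC difference. The 27305 promoters also include those of genes not tested here.

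The 34 cell cycle genes had the lowest median of the 38 lists, and this followed the CC clone used. All 34 differences were negative, with a median of -0.38 on the log2 scale against -0.01 over all genes, but 9 lay lower in all GC libraries (26.5%, against 12.4% of all genes) and 0 were called. The list's median deviation from the mean of the 5 libraries was -0.39, 0.03 and -0.10 in GC clones and 0.72 and -0.20 in CC clones. CC clone 1 was thus the high library. Set against CC clone 1 alone the median difference was -0.90, and against CC clone 3 alone it was 0.01. MKI67, the proliferation antigen, had 184, 259 and 221 units in GC clones and 475 and 153 units in CC clones. TOP2A, the topoisomerase of dividing cells, had 179, 263 and 265 units in GC clones and 444 and 215 units in CC clones. CDC25C, the phosphatase that starts mitosis, had 11.9, 19.7 and 11.0 units in GC clones and 27.8 and 20.4 units in CC clones (-0.77 ± 0.30). AURKA, a spindle kinase on chromosome 20, had 43.9, 66.2 and 57.5 units in GC clones and 147 and 66.0 units in CC clones (-0.83 ± 0.35), with GC clone 3 level with CC clone 3. Fewer cycling cells and less RNA per cycling cell cannot be told apart in bulk RNA.

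CDK1, the kinase that drives entry into mitosis, was 1 of the 9, with 27.7, 36.4 and 26.9 units in GC clones and 55.4 and 37.1 units in CC clones (-0.59 ± 0.33). Its promoter is shown as an example of the elements typical of genes expressed late in the cycle (RefSeq, GRCh38.p14, chr10:60778081-60778330, plus strand, 5′ to 3′). The capitals mark letter matches to the cell cycle homology element (TTTGAA) and to the CCAAT box. They start 161 and 150 bases before the annotated start and are not measured sites.
CDK1: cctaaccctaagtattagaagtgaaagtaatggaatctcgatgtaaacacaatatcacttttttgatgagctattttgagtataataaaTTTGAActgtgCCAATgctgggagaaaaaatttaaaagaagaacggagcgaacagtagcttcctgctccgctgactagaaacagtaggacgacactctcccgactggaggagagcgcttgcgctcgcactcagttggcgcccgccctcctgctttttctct
On either strand of such windows, TTTGAA was found in 9 of 26 cell cycle members with an entry (34.6%) and in 13.6% of all promoters. CCAAT was found in 20 of 26 (76.9%) and in 33.0% of all promoters. These shares likewise describe the make-up of the list and not the GC and CC difference.

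Cholesterol synthesis showed the same dependence on the CC clone. Of 23 tested genes, 21 differences were positive with a median of 0.31, and 3 lay higher in all GC libraries (13.0%, against 10.9% of all genes), namely SREBF2, PMVK and DHCR7. The list's median deviation was 0.24, 0.20 and 0.04 in GC clones and 0.54 and -0.85 in CC clones. Set against CC clone 3 alone the median difference was 0.96, and against CC clone 1 alone it was -0.41, so the direction turned. All 23 genes were higher in CC clone 1 than in CC clone 3. HMGCS1, an early enzyme of the pathway, had 216, 208 and 172 units in GC clones and 255 and 67.2 units in CC clones. SREBF2, the sterol-sensing regulator, had 248, 282 and 381 units in GC clones and 239 and 156 units in CC clones (0.63 ± 0.24), its GC clone 2 just above CC clone 1. DHCR7, the last enzyme of the pathway, had 137, 120 and 131 units in GC clones and 103 and 51.1 units in CC clones (0.83 ± 0.32).

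The integrated stress response list split the CC clones in the opposite sense, with CC clone 3 high. Its median was -0.19 over 23 genes, with 0 higher and 2 lower in all GC libraries (8.7%, against 12.4% of all genes). Against CC clone 3 alone the median was -0.67 and against CC clone 1 alone 0.29. ASNS, asparagine synthetase, had 122, 131 and 181 units in GC clones and 77.9 and 331 units in CC clones. TRIB3, a pseudokinase induced by the same response, had 117, 87.9 and 84.5 units in GC clones and 48.9 and 227 units in CC clones. All GC values of both genes lay between the CC clones. ATF5, a factor of that response, was 1 of the 2 lower genes, with 11.8, 12.3 and 5.31 units in GC clones and 13.7 and 13.9 units in CC clones (-0.56 ± 0.36), while NUPR1, another stress factor, had 18.7 to 26.7 units in GC clones and 14.5 to 20 units in CC clones. The ER chaperone list split the CC clones as cholesterol synthesis did, with CC clone 1 high. It had a median of 0.01 over 22 genes, 0.41 against CC clone 3 and -0.31 against CC clone 1, with 0 genes apart in either direction. DNAJB9, a chaperone cofactor of the ER, had 42.7, 38.3 and 27.8 units in GC clones and 45.5 and 42.1 units in CC clones. Over 38 lists with tested members, 23 medians had opposite signs against the 2 CC clones.

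The NRF2 target list kept its sign against either CC clone, at 0.25 (clone 3 alone) and 0.45 (clone 1 alone). Its median was 0.35 over 24 genes, 22 differences were positive, and 5 lay higher in all GC libraries with 0 lower (20.8%, against 10.9% of all genes). The list's deviation was -0.17, 0.11 and 0.52 in GC clones and -0.33 and -0.16 in CC clones, so GC clone 2 stood level with CC clone 3 and GC clone 4 stood highest. The 5 were AKR1C3, GPX2, TKT, GSR and OSGIN1. GPX2, a glutathione peroxidase, had 63.0, 81.3 and 185 units in GC clones and 49.5 and 41.7 units in CC clones (1.10 ± 0.38). AKR1B10, a further aldo-keto reductase, had 17.5, 44.8 and 149 units in GC clones and 14.8 and 22.8 units in CC clones and overlapped. NQO1, a quinone reductase, had 399, 422 and 408 units in GC clones and 274 and 407 units in CC clones, with GC clone 2 below CC clone 3. The GPX2 promoter is shown for its letter match to the antioxidant response element core, TGACNNNGC. The match lies on the opposite strand and is in capitals (RefSeq, GRCh38.p14, chr14:64942746-64942995, minus strand, 5′ to 3′).
GPX2: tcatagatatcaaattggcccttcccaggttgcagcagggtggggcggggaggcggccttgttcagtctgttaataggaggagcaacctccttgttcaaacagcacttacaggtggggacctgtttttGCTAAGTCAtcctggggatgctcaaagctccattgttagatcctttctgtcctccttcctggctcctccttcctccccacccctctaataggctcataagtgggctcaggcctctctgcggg
The core was found on either strand in 4 of 16 NRF2 list members with an entry (25%) and in 11.0% of all promoters. This share too describes the make-up of the list and not the GC and CC difference.

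Ribosomal protein genes were listed as a sign of RNA composition. All 28 differences were positive, the median was 0.21, and 11 lay higher in all GC libraries with 0 lower (39.3%, against 10.9% of all genes). The differences were small and uneven, with deviations of -0.13, 0.12 and 0.24 in GC clones and -0.07 and -0.14 in CC clones. RPL7 had 754, 928 and 866 units in GC clones and 718 and 658 units in CC clones (0.30 ± 0.17), and RPL11 had 297, 388 and 424 units in GC clones and 313 and 237 units in CC clones (0.42 ± 0.26). TERC, the telomerase RNA, had 62.6, 83.3 and 114 units in GC clones and 46.2 and 61.8 units in CC clones (0.65 ± 0.25). The part of RNA composition in the other lists was not tested.

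Of 26 tested genes of fatty acid oxidation and PPAR-alpha, 8 lay higher in all GC libraries and 0 lower (30.8%, against 10.9% of all genes), with a median of 0.18. It was 0.28 against CC clone 3 and 0.14 against CC clone 1. The 8 were PPARA, CPT2, ACADS, HADHA, EHHADH, ETFDH, CREB3L3 and ANGPTL4. CPT2, the inner enzyme of the mitochondrial carnitine shuttle, had 26, 24.9 and 22.5 units in GC clones and 19 and 17.2 units in CC clones (0.42 ± 0.20). ANGPTL4, a secreted inhibitor of lipoprotein lipase, had 3.29, 4.01 and 7.24 units in GC clones and 1.27 and 2.39 units in CC clones (1.17 ± 0.50). CPT1A, the outer carnitine enzyme, had 12.4, 4.01 and 3.46 units in GC clones and 4.11 and 22.7 units in CC clones and overlapped. CC clone 3 had the highest CPT1A level of these libraries. ACSM3, a medium-chain acyl-CoA ligase, had 33.8, 40.1 and 47.7 units in GC clones and 13.1 and 27.4 units in CC clones (1.06 ± 0.42).

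Fatty acid synthesis genes had 4 of 18 higher in all GC libraries (22.2%, against 10.9% of all genes) and 0 lower, with a median of 0.26 that was 0.47 against CC clone 3 and -0.15 against CC clone 1. ELOVL6, which lengthens palmitate, had 48.6, 51.1 and 54.1 units in GC clones and 35.6 and 36.3 units in CC clones. Both groups were tight, and the difference was 0.50 ± 0.18. MID1IP1, a regulator of acetyl-CoA carboxylase, had 7.6, 14.3 and 89.2 units in GC clones and 7.15 and 4.23 units in CC clones, so GC clone 4 stood apart. GCKR, the glucokinase regulator and a fatty liver risk gene, had 25.4, 15.4 and 22 units in GC clones and 5.82 and 9.89 units in CC clones (1.37 ± 0.34). Of the 18 fatty liver risk genes, GCKR and PSD3 lay higher in all GC libraries, and MBOAT7, APOE and TOR1B lay lower. These shares of 11.1% and 16.7% stand beside 10.9% and 12.4% of all genes, and the list's median was 0.02.

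Lipid droplet coat genes had 2 of 16 higher (12.5%) and 1 lower (6.25%) in all GC libraries, against 10.9% and 12.4% of all genes, with a median of 0.02. PLIN5, the coat protein of oxidative cells, had 4.05, 3.68 and 4.67 units in GC clones and 1.96 and 2.47 units in CC clones (0.77 ± 0.39). PLIN4, another coat protein, had 17.4, 10.7 and 12.2 units in GC clones and 6.58 and 10.9 units in CC clones (0.61 ± 0.29) and overlapped at its edge. PLIN2, the main coat protein of hepatocyte droplets, had 158, 160 and 184 units in GC clones and 132 and 206 units in CC clones. The PLIN2 values of GC clones lay between those of the CC clones. Triglyceride synthesis and hydrolysis genes had 2 of 17 higher (11.8%) and 3 lower (17.6%), with a median of 0.12. AGPAT3, an acyltransferase of that route, had 140, 142 and 139 units in GC clones and 122 and 114 units in CC clones (0.25 ± 0.14). Apolipoprotein and lipoprotein assembly genes had 2 of 21 higher (9.52%) and 1 lower (4.76%), with a median of 0.22. APOA4, a lipoprotein component, had 11.3, 10.6 and 16.5 units in GC clones and 7.84 and 8.78 units in CC clones (0.57 ± 0.31). MTTP, which loads lipid onto APOB, had 134, 248 and 235 units in GC clones and 157 and 125 units in CC clones (0.50 ± 0.28) and overlapped.

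Coagulation and complement genes had 5 of 26 higher (19.2%, against 10.9% of all genes) and 0 lower in all GC libraries, with a median of 0.21. F10, a clotting factor, had 52.1, 52.3 and 65.5 units in GC clones and 38.3 and 45.2 units in CC clones (0.43 ± 0.21). Hepatocyte plasma proteins had 0 of 27 apart in either direction and a median of 0.07. Among 21 hepatocyte transcription factors, FOXA2 and NR2F1 lay higher in all GC libraries (9.52%) and 0 lower, with a median of -0.00. Drug metabolism genes had 4 of 18 higher (22.2%, against 10.9% of all genes) and 0 lower, with a median of 0.19. CYP1A1, an inducible oxidase, had 10.4, 14.1 and 13.9 units in GC clones and 4.62 and 8.78 units in CC clones (0.93 ± 0.44). With palmitic acid the same clones had 9.60, 10.8 and 5.25 units (GC) and 9.36 and 23.9 units (CC). The groups then overlapped, and the difference was -0.83. ALDH1A1, a retinal dehydrogenase, had 0.76, 185 and 314 units in GC clones and 1.33 and 0.479 units in CC clones, while GG clones had 155, 144 and 0.941 units. This gene was near 0 or over 100 units in single clones of both GC and GG lines. In the amino acid and urea cycle list 3 of 20 genes lay higher (15%) and 0 lower, with a median of 0.14.

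The p53 target list had a median of -0.27 over 23 genes, with 18 negative differences, 1 gene higher (4.35%) and 2 lower (8.7%) in all GC libraries, against 10.9% and 12.4% of all genes. MDM2, the ligase that degrades p53, had 309, 284 and 308 units in GC clones and 420 and 517 units in CC clones (-0.63 ± 0.25). CDKN1A, the p53-induced cell cycle inhibitor, had 97.0, 79.1 and 96.3 units in GC clones and 93.8 and 141 units in CC clones and overlapped. Of 26 interferon-stimulated genes, 6 lay lower (23.1%, against 12.4% of all genes) and 2 higher (7.69%, against 10.9%) in all GC libraries, with a median of -0.01. IFIT2, which binds foreign RNA, had 0.591, 1.64 and 0.483 units in GC clones and 2.15 and 2.07 units in CC clones (-0.99 ± 0.40). IFI27, of the same class, went the other way, with 5.82, 2.89 and 2.58 units in GC clones and 0.0633 and 1.12 units in CC clones (2.08 ± 0.55). Among 19 Wnt and beta-catenin targets, 4 lay higher (21.1%) and 3 lower (15.8%), against 10.9% and 12.4% of all genes. TCF7, a factor that partners beta-catenin, had 20.7, 17.4 and 14.8 units in GC clones and 30.2 and 31.8 units in CC clones (-0.81 ± 0.23). MMP11, a secreted protease of the matrix list, had 60.0, 52.7 and 105 units in GC clones and 34.5 and 34.5 units in CC clones (0.99 ± 0.35). Of the endothelial markers, 3 of 6 in the table passed the filter, and ENG, a TGF-beta co-receptor, had 19, 10.9 and 12.5 units in GC clones and 2.02 and 6.54 units in CC clones (1.76 ± 0.63). LYVE1, a receptor of lymphatic and sinusoidal cells, had 1.18, 0.197 and 2.49 units in GC clones and 2.21 and 4.71 units in CC clones and overlapped. The summed endothelial markers came to 24.0 to 34.1 units in GC clones and to 19.1 units in each CC clone.

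**Figure D2:**
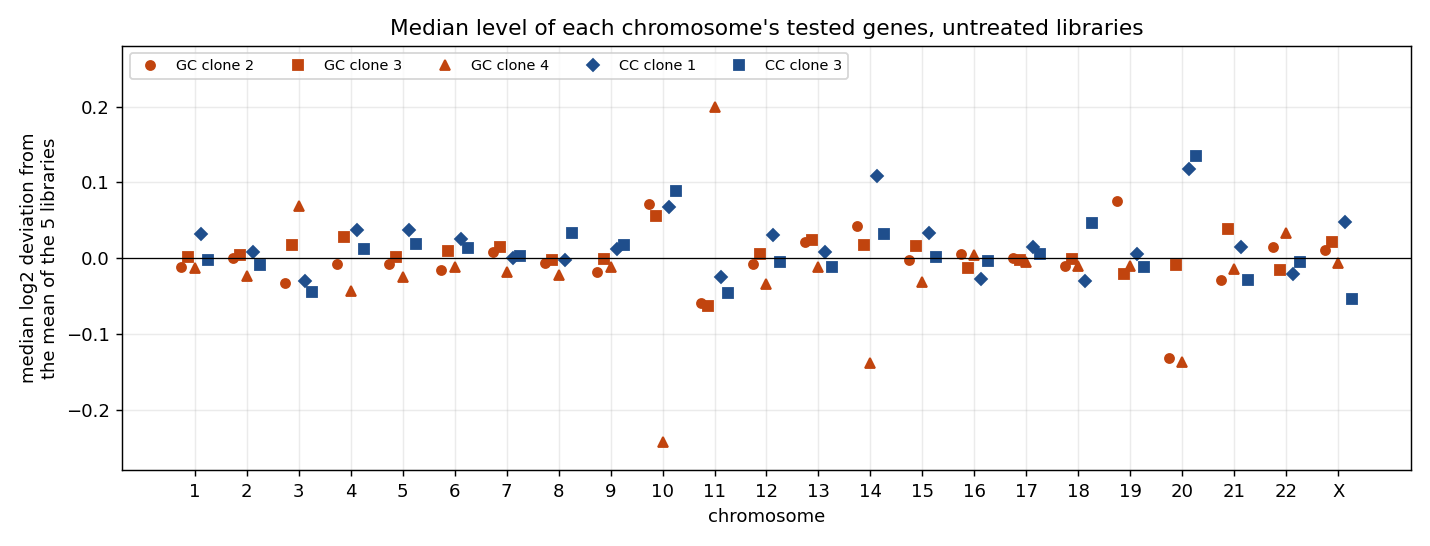
Median log2 deviation of each chromosome's tested genes from the mean of the 5 untreated libraries (y axis) by chromosome (x axis); orange symbols are GC clones and blue symbols CC clones. Chromosome 20 has both CC clones at the top (0.12 and 0.14), and GC clone 4 alone stands apart on chromosomes 10 (-0.24), 11 (0.20) and 14 (-0.14).

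A position-dependent difference was found on chromosome 20. Of 361 tested genes there, 132 lay lower in all GC libraries (36.6%, against 12.4% of all genes) and 26 higher (7.2%), with a median of -0.23. Most of the lower genes lay from 30 Mb to the end of the chromosome (positions from GENCODE on GRCh38). In that segment 120 of 251 genes were lower (47.8%) and 5 higher (1.99%), and the median was -0.33. The segment's median deviation was -0.19, -0.00 and -0.21 in GC clones and 0.20 and 0.20 in CC clones. GC clones 2 and 4 thus lay together, GC clone 3 lay between, and both CC clones lay above. The segment was drawn after these values were seen, so no test is given. With palmitic acid the median was -0.32 in the same clones. The 4 bins of 10 Mb within it had medians from -0.36 to -0.26, so the shift ran along the whole segment.

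The bin just before it had the opposite sign. Between 20 and 30 Mb, 12 of 22 genes lay higher in all GC libraries (54.5%, against 10.9% of all genes) and 0 lower, with a median of 0.43. Its deviations were 0.22, -0.03 and 0.28 in GC clones and -0.29 and -0.27 in CC clones, in the same order of clones with the sign turned. FOXA2, a pioneer factor of liver genes, lies there and had 33.2, 33.1 and 44.7 units in GC clones and 30.5 and 26.6 units in CC clones (0.36 ± 0.19). Up to 20 Mb the median over 88 genes was -0.01. GG clones 1 and 6 stood with the CC clones in the long segment (0.17 and 0.12) and GG clone 2 with the GC clones (-0.15). DNA copy number was not measured in these files, and its part in the shift was not tested.

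**Figure D3:**
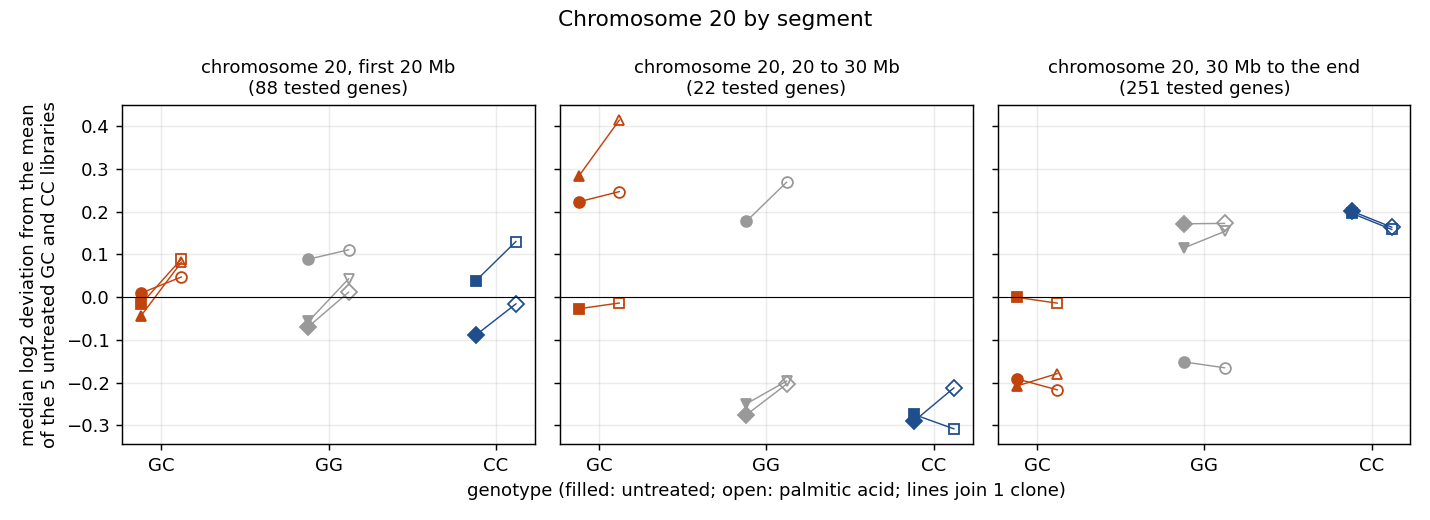
Median log2 deviation from the mean of the 5 untreated GC and CC libraries (y axis) for 3 segments of chromosome 20, by genotype (x axis); filled symbols are untreated libraries, open symbols palmitic acid libraries, and lines join the libraries of 1 clone. In the segment from 30 Mb, GC clones lay at -0.19, -0.00 and -0.21, GG clones at 0.17, -0.15 and 0.12 and CC clones at 0.20 and 0.20, and each clone stayed on its side of 0 under palmitic acid.

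Genes of that segment appear among the widest gaps. TOMM34, a cofactor of mitochondrial import, had 55.1, 56.1 and 53.6 units in GC clones and 88.6 and 92.2 units in CC clones (-0.71 ± 0.25). TOP1, the DNA topoisomerase that relaxes supercoils, had 135, 135 and 125 units in GC clones and 206 and 201 units in CC clones (-0.62 ± 0.22). Both genes were tight within each genotype. RBM38, an RNA-binding target of p53 that was picked after its values were seen, had 43.5, 50.0 and 39.1 units in GC clones and 83.6 and 74.5 units in CC clones (-0.84 ± 0.22). HNF4A lies in the segment too and overlapped, at the levels given above. Without chromosome 20, 1407 of 12803 genes lay higher (11%) and 1497 lower (11.7%), and the median was -0.01.

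No change of the GC against CC difference with palmitic acid was detected. In limma with the clone as a replicate block, 0 of 13164 genes (0.0%) had a GC minus CC difference that differed between treated and untreated libraries, with 617 at an unadjusted p under 0.05. Without the block the count was also 0, with 33.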

How the data were processed

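RNA from untreated and palmitic acid-treated HepG2 lines was sequenced after ribosomal RNA depletion with a stranded kit, per the labels' protocols. Tools in the submitters' processing notes are RSEM 1.3.0, Trimmomatic 0.38, edgeR and Bowtie2, with build hg38. No annotation is named. The authors deposited 1 table of a normalized signal for 16558 genes in 16 libraries. It equals read counts divided by TMM-scaled library size (CPM), recomputed to a relative difference under 1e-12. All values (100%) were whole multiples of 1 read at a tolerance of 0.01 reads, so reads could be recovered.

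The signal plus 0.5 was taken to log2, and 13164 genes were kept whose average over the 5 libraries reached 1 unit. The test was limma (3.58.1 in R 4.3.3) with a mean-variance trend on the 8 untreated libraries in 3 groups, with 5 residual degrees of freedom, two-sided, adjusted by Benjamini-Hochberg at 0.05. Alternatives were edgeR 4.0.16, DESeq2 1.42.0 and other scalings, filters and sets of libraries. Palmitic acid per-library labels run past the protocol's 48 h; the protocol was taken. Both libraries of a number come from 1 clone; with clone as a random effect their correlation was 0.74. P-values and standard errors measure the spread between clones of 1 genotype, pooled over GC, CC and GG clones. The limma fit and edgeR on the 8 untreated libraries were checked on simulated counts with large changes put in. DESeq2 and the fits with palmitic acid libraries were not checked in this way.

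The members and the 39 gene lists were chosen with earlier results of these data known. Named genes were those called, the 12 with the widest gap each way and at least 5 units in the higher group, up to 2 members per list with the smallest p, the patatin-like lipases and the neighbours of PNPLA3. AFP, HNF4A, ALB, TTR, AKR1C1, AKR1C2, AKR1B10, NQO1, MKI67, TOP2A, CDK1, HMGCS1, ASNS, TRIB3, CPT1A, PLIN2, CDKN1A, RBM38 and genes named only in a count were chosen after their values were seen. GENCODE 29 on GRCh38 placed 95.4% of the genes.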

Additional observations from a re-analysis of the deposited data

How the results depend on the processing

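The count of called genes was 0 under every limma and edgeR setting run on all 5 libraries, including the fit of all 16 libraries with the clone as a replicate block (0). DESeq2 called 4. Leaving out 1 library gave 0 to 1 called genes; the 1 was PPAN-P2RY11 without CC clone 3 (limma, adjusted p = 0.00551), where the lone CC clone is assumed to vary like the others. Genes with groups apart numbered 3062, and 4220 to 7958 with 1 library left out. The number of comparisons each gene must pass is then smaller. Without the filter on low values, 1972 of 16530 genes lay higher and 1794 lower in all GC libraries. The larger side thus turned from lower to higher.

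The PNPLA3 difference ran from -0.54 to 1.92 with 1 library left out; the low end, which turned its direction, was without CC clone 3.

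Count models gave a smaller PNPLA3 difference, 0.28 in edgeR and in DESeq2, against 0.69. Why DESeq2 called 4 genes was not tested. Of 38 list medians, 24 moved by more than 1 SD between clones when a CC clone was left out, and 0 under scaling by library total. The chromosome 20 median from 30 Mb, under alternatives chosen after seeing the data, lay between -0.39 and -0.32. At the lowest levels, 1 read is 0.0633 to 0.0844 units in these libraries, which limits differences of genes near 0 in CC clones.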

Other observations

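Further lists are given beside the 10.9% of all genes that lay higher and the 12.4% that lay lower in all GC libraries. Nuclear respiratory chain genes had 3 of 33 higher (9.09%) and 0 lower in all GC libraries with a median of 0.08, and COX7C, a subunit of cytochrome oxidase, had 98.2, 106 and 105 units in GC clones and 97.2 and 72.2 units in CC clones (0.29 ± 0.17). Glycolysis and hypoxia genes had 1 of 24 on each side (4.17%) and a median of -0.05. Gluconeogenesis and glycogen genes had 3 of 15 higher (20%) and 0 lower with a median of 0.08, and SLC2A2, the glucose carrier of hepatocytes, had 207, 269 and 272 units in GC clones and 195 and 187 units in CC clones (0.37 ± 0.22). Fatty acid uptake and activation genes had 2 of 15 on each side (13.3%) and a median of 0.02. Bile acid genes had 3 of 14 higher (21.4%) and 1 lower (7.14%) with a median of 0.14, the lower one being SLC51B, a subunit of the basolateral bile acid exporter, with 2.03, 1.44 and 0.805 units in GC clones and 2.4 and 3.51 units in CC clones (-0.88 ± 0.39).

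Metal-response genes had 0 of 13 higher and 2 lower (15.4%) with a median of 0.15. MT2A, a metallothionein, had 2.36, 1.18 and 2.09 units in GC clones and 2.53 and 7.18 units in CC clones (-1.06 ± 0.51), and SLC30A1, the zinc exporter, had 35.0, 22.5 and 18.3 units in GC clones and 43.0 and 37.1 units in CC clones (-0.70 ± 0.37). Metallothioneins share sequence, so reads may be split between them. Autophagy and lysosome genes had 1 of 24 higher (4.17%) and 4 lower (16.7%) with a median of -0.03. The higher one was WIPI1, a phosphoinositide-binding autophagy protein, with 95.0, 59.5 and 87.2 units in GC clones and 52.5 and 42.4 units in CC clones (0.74 ± 0.36). Oncofetal and stem genes had 2 of 16 higher (12.5%) and 1 lower (6.25%) with a median of 0.10. IGF2BP1, an oncofetal RNA-binding protein, had 667, 818 and 670 units in GC clones and 1044 and 884 units in CC clones (-0.43 ± 0.21). MEST, an imprinted gene, had 116, 62.6 and 111 units in GC clones and 66.9 and 65.7 units in CC clones (0.49 ± 0.30).

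Matrix and TGF-beta genes had 2 of 25 higher (8%) and 0 lower with a median of 0.09, and epithelial and mesenchymal genes had 4 of 21 higher (19%) and 1 lower (4.76%) with a median of -0.08. Of markers of other cell types, 5 stellate, 4 biliary and 3 macrophage genes passed the filter. Summed, the stellate markers came to 65.3 to 97.9 units in GC clones and 67.3 to 84.0 units in CC clones. The biliary markers came to 307 to 388 units in GC clones and 358 to 398 units in CC clones, and the macrophage markers to 394 to 722 and 428 to 917 units. LYZ, the lysozyme gene, made up most of the macrophage sum, with 371 to 709 units in GC clones and 416 to 897 units in CC clones. Abundant noncoding RNAs had 2 of 11 higher (18.2%) and 0 lower with a median of 0.13. The mitochondrial mRNA list was not analysed here.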
